A study of Mus musculus with 6 samples.

Results

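The genes described here are 10 that process or modify procollagen, the precursor from which collagen fibres and networks are built: P4ha1, P4ha2, P4ha3, Plod1, Plod2, Plod3, Colgalt1, Serpinh1, Bmp1 and Pcolce. They were taken by gene symbol, and all 10 were found among the 56940 genes counted in each library. Their levels were compared between mouse lens capsules with the attached lens epithelial cells taken during cataract surgery (the 0 h group) and the same tissue 5 days on. In the operation the fiber cell mass was removed through an anterior opening, while the capsule and its epithelium stayed in the eye. All mice were wildtype C57BL/6, their age is not given in the sources used here, and each of the 3 libraries per time was made from total RNA of 5 pooled capsules. Capsules of the 0 h group were from second eyes, operated on when the first eye was already at 5 days, so every animal in both groups had undergone surgery. Pools of 0 h and 5 days may share mice, since both eyes were collected together, and the labels do not say which do. Within a group nothing states which animals entered which pool, so p-values measure the spread between these pools.

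Procollagen chains are modified in the endoplasmic reticulum (ER) before they fold. Prolyl 4-hydroxylase, whose catalytic alpha subunit is encoded by P4ha1, P4ha2 or P4ha3, makes the hydroxyproline that keeps the triple helix stable, and the lysyl hydroxylases Plod1, Plod2 and Plod3 make the hydroxylysine used for sugar attachment and cross-links. Colgalt1 adds galactose to hydroxylysine, and Serpinh1 (HSP47) is the collagen-specific chaperone that binds the folded triple helix and leaves it in the early Golgi. After secretion, Bmp1 cuts off the carboxyl propeptide of fibrillar procollagens, and Pcolce is a glycoprotein that enhances this cut. In the lens the same ER enzymes serve the type IV collagen of the capsule, which keeps its propeptide domains, whereas fibrillar collagens are typical of scar tissue behind an opacified capsule.

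Promoter sequence was at hand for 8 of the 10 genes, with 9 starts, from RefSeq on build GRCm38.p6. It is shown for the 4 genes whose windows hold the letters ACGTG. In the values below, P4ha1 was not called, P4ha2 was lower at 5 days, and Plod3 and Serpinh1 were higher. The call of P4ha2 was lost in some settings, and a link between the letters and these values was not tested. Each line gives the 250 bases before the start on the strand of the gene, and capitals mark ACGTG or GCGTG, the alternative forms of the core letters of a hypoxia response element, on either strand.
P4ha1 (chr10:59323046-59323295, plus strand): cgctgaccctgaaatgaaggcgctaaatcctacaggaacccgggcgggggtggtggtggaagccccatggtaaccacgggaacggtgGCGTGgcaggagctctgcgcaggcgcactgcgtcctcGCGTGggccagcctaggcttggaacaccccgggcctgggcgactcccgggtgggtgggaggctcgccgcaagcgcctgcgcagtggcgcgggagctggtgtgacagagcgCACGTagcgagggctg
P4ha2 (chr11:54100674-54100923, plus strand): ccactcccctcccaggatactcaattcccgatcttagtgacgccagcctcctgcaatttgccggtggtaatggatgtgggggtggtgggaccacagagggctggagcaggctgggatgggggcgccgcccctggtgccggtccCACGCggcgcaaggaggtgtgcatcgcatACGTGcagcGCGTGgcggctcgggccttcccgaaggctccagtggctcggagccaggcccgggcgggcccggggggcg
Plod3 (chr5:136986769-136987018, plus strand): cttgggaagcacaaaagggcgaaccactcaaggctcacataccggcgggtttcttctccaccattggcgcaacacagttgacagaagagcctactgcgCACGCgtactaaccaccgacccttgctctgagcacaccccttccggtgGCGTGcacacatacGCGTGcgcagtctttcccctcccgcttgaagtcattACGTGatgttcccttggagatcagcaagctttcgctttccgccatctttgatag
Serpinh1 (chr7:99353240-99353489, minus strand): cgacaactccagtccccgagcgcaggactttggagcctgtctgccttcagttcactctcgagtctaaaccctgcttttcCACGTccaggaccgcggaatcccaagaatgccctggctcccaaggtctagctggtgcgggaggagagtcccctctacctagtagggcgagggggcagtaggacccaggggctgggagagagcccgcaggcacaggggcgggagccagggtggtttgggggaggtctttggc
ACGTG occurred in 4 of the 9 windows of these genes and in 16.6% of 32851 windows of the same length over all genes, and GCGTG in 7 of 9 and in 28.2%. The nearest ACGTG ended 12 bases before the start in P4ha1, 74 in P4ha2, 50 in Plod3 and 167 in Serpinh1. CCAAT occurred in 1 of the 9 windows (Plod3) and in 33.8% of all windows, and the GC box GGGCGG in 8 of 9 and in 32.7%. The 2 Colgalt1 windows overlap and hold the same GGGCGG, which is counted in both. The heat shock pair GAANNTTC was found in 1 window (Colgalt1) and in 6.69% of all windows. The ER stress response element and the palindromic SMAD binding element GTCTAGAC, present in 0.113% and 0.167% of all windows, were in none of the 9. These are matches of letters on both strands, and GGGCGG can overlap GCGTG. They do not show binding. G and C made up 50 to 70% of the bases in the 9 windows. The windows over all genes were not matched for this, so the shares do not show an excess of these letters.

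The libraries held 6207387 to 9774343 gene counts. Values are given as CPM (counts scaled to a common library total) after scaling between libraries with the trimmed mean of M-values (TMM), with SD over the 3 libraries, and as log2 fold changes, positive where 5 days was higher, given with the standard error (SE). A gene was called when its adjusted p in edgeR's quasi-likelihood test, adjusted over all 14676 tested genes, was under 0.05. On the second principal component, with 5.1% of the variance, replicate 3 at 5 days stood at -37.3 and the other libraries between -12.5 and 24.3. Over all tested genes 25.1% were called higher at 5 days and 22.5% lower. Of the markers of lens epithelium, 10 of 10 were tested and present at both times, with 7 lower and 1 higher (Pax6) at 5 days. Their summed level of 78690 to 95780 CPM at 0 h and 8080 to 22730 CPM at 5 days was mostly from the crystallins Cryaa (62310 and 11190 CPM on average) and Cryab (19620 and 3107 CPM). Foxe3, Cdh1, Pitx3, Prox1 and Maf fell by 1.17 to 1.74 on the log2 scale, and Six3 and Sox2 were not called. Macrophage and other leukocyte markers rose in 12 of 12, from a summed 18.4 to 36.6 CPM to 538.7 to 765.8 CPM. However, 4 of the 12 (Adgre1, Tyrobp, Itgam and Cd14) passed the low-count filter through the 5 day libraries alone. Ptprc, Cd68, Fcer1g and C1qa had 1 or 2 of the 3 libraries of 0 h past its cutoff and were also kept only because of the 5 day libraries. In pools of whole capsules, fewer cells of a type and less RNA per cell cannot be told apart.

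Of the 10 genes, 7 were higher at 5 days and 2 were lower, while P4ha1 was not called, so that 9 were called where 47.6% of all tested genes were. The 10 genes were chosen with earlier results of these data known, so the counts here describe them and are no test. The share called higher among all tested genes was 25.1%, and the share called lower was 22.5%, so the 2 of 10 that fell are near that share. The median log2 fold change was 1.07 over the 10 genes and -0.01 over all tested genes. The libraries of the 2 times did not overlap for 8 of the 10, against 58.1% of all tested genes. Bmp1 rose 10.7-fold, the 3 lysyl hydroxylases, Serpinh1 and Colgalt1 rose by 1.76- to 2.51-fold, and P4ha2 and Pcolce fell. Replicate 3 at 5 days was the highest library of its group for 8 of the 10, where it was the highest for 35% of all tested genes. P4ha3, counted in the 7, the 9 and the 8, passed the low-count filter through the 5 day libraries alone and could hardly come out lower. The other 9 passed it in every library.

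**Figure D1:**
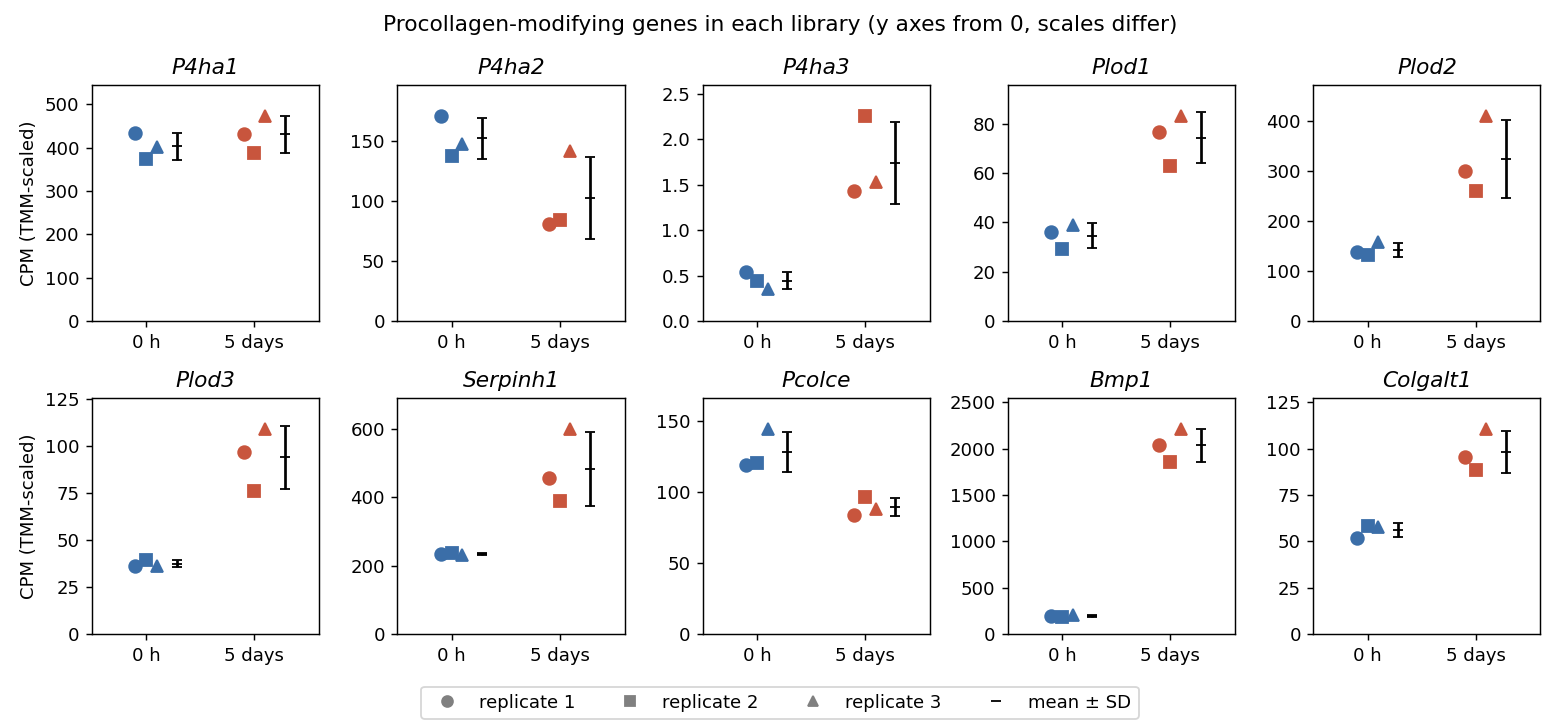
TMM-scaled CPM of each of the 10 genes in the 3 libraries at 0 h (blue) and the 3 at 5 days (red), with marker shape for the replicate and black bars for mean ± SD. The 5 day libraries of Bmp1 lie between 1857 and 2217 CPM and those of 0 h between 183.2 and 201.4, whereas the P4ha1 and P4ha2 libraries overlap between times.

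The 3 prolyl 4-hydroxylase alpha genes moved in different ways. P4ha1 (ENSMUSG00000019916), the widely expressed alpha subunit, stood at 433.7, 372.8 and 401.3 CPM at 0 h and at 431.4, 387.2 and 473.3 CPM at 5 days. These libraries overlapped, and the log2 fold change of 0.10 (SE 0.11) was not called (adjusted p = 0.499). Its 95% interval ran from a fold of 0.905 to 1.26, so a change of the size seen in the lysyl hydroxylases lies outside it.

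P4ha2 (ENSMUSG00000018906), the alternative alpha subunit, stood at 170.9, 137.5 and 147.6 CPM at 0 h and at 81.0, 84.4 and 141.5 CPM at 5 days. Replicates 1 and 2 at 5 days were well below every 0 h library, and replicate 3 lay within the 0 h range. The log2 fold change of P4ha2 was -0.57 (SE 0.18, adjusted p = 0.0241). Without replicate 3 at 5 days it was -0.89 (SE 0.11). The call was lost without replicate 1 at 0 h (-0.48), without replicate 1 (-0.43) or replicate 2 (-0.43) at 5 days, and with scaling by total library size (-0.43, adjusted p = 0.0825).

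P4ha3 (ENSMUSG00000051048), the least abundant alpha subunit, had 4, 4 and 3 counts at 0 h and 9, 18 and 14 at 5 days. The 5 day libraries were all above those of 0 h, at 1.43 to 2.26 against 0.358 to 0.539 CPM. From 11 and 41 counts in all, the ratio was 3.97-fold with a 95% exact counting interval of 2.01 to 8.57, which covers counting error alone. It was called higher, with a log2 fold change of 1.95 (SE 0.54, adjusted p = 0.0107), but a gene that passes the filter only where it is high had to differ, so this call supports nothing further. The call was lost without replicate 3 at 0 h (1.81) or without replicate 2 at 5 days (1.72).

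Summed over the 3 alpha genes, the level was 555.0 ± 47.5 CPM at 0 h and 534.7 ± 73.5 CPM at 5 days (n = 3; two-sided exact permutation, p = 0.8). Shares within the family were taken from counts per exon base, so they are not parts of that CPM sum. Per base of merged exon, P4ha1 made up 79.3, 80.3 and 80.4% of the family at 0 h and 88.6, 86.9 and 83.2% at 5 days. P4ha2 took 20.6, 19.5 and 19.5% at 0 h and 11.0, 12.5 and 16.4% at 5 days. P4ha3 took 0.094 to 0.129% at 0 h and 0.354 to 0.665% at 5 days. The P4ha1 and P4ha2 shares did not overlap between times, and for each the two-sided exact permutation test gave p = 0.1, its lower limit with 3 libraries a group. Such shares are taken within a library and do not depend on scaling between libraries.

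**Figure D2:**
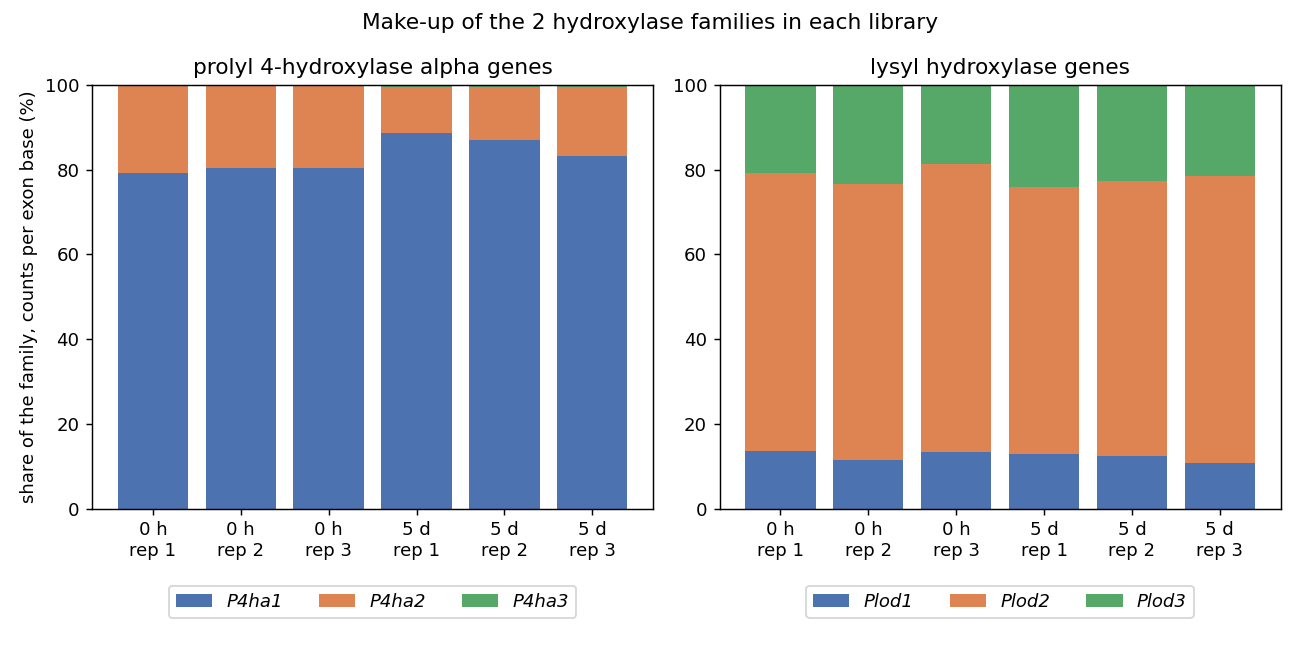
Share of each gene in its enzyme family (%), from counts per base of merged exon, in each of the 6 libraries, for the prolyl 4-hydroxylase alpha genes (left) and the lysyl hydroxylase genes (right). The P4ha2 share lies at 19.5 to 20.6% at 0 h and 11.0 to 16.4% at 5 days, while the Plod shares of the 2 times overlap.

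All 3 lysyl hydroxylases rose, and by similar amounts. Plod1 (ENSMUSG00000019055), which hydroxylates lysines within the triple helix, went from 36.1, 29.1 and 38.8 CPM to 76.7, 63.0 and 83.2 CPM. Every 5 day library was above every 0 h library, and the log2 fold change of Plod1 was 1.10 (SE 0.14, adjusted p = 3.98e-05). Plod2 (ENSMUSG00000032374), which hydroxylates lysines of the telopeptides at the ends of the helix, went from 137.4, 132.3 and 158.0 CPM to 299.2, 260.5 and 410.6 CPM. The groups were again separate, with replicate 3 highest at 5 days, and the log2 fold change of Plod2 was 1.18 (SE 0.15, adjusted p = 4.98e-05). The counts do not distinguish the Plod2 splice forms.

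Plod3 (ENSMUSG00000004846), which has glycosyltransferase activity besides lysyl hydroxylase activity and is needed for type IV collagen, went from 36.4, 39.5 and 36.5 CPM to 96.8, 76.2 and 109.4 CPM. Its log2 fold change was 1.33 (SE 0.13, adjusted p = 5.86e-06), with no overlap between times. Summed, the 3 genes went from 214.6 ± 16.7 to 491.9 ± 103 CPM (n = 3), a ratio of 2.29 (two-sided exact permutation, p = 0.1).

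The balance among the lysyl hydroxylases was not seen to differ between times. Plod2 made up 66.3 ± 1.48% of the family per exon base at 0 h and 65.1 ± 2.37% at 5 days (n = 3, exact permutation p = 0.4). Plod1 made up 12.8 ± 1.22% and 12.1 ± 1.03% (exact permutation p = 0.5, n = 3), and Plod3 made up 20.9 ± 2.27% and 22.8 ± 1.40% (exact permutation p = 0.3, n = 3). Within each library the log2 ratio of Plod2 to Plod1 counts was 2.05 ± 0.13 at 0 h and 2.10 ± 0.18 at 5 days (n = 3). That of Plod3 to Plod1 was 0.12 ± 0.28 and 0.33 ± 0.06, and that of Plod2 to Plod3 was 1.92 ± 0.18 and 1.77 ± 0.14 (n = 3 each). All 3 ratios overlapped between times. Without replicate 2 at 0 h, the differences of the last 2 were 0.37 and -0.24, and 8 of the 9 ratios computed did not overlap, against 6 with all libraries. Leaving out a library can only keep or raise that number. With 3 libraries per time these tests cannot show that the shares are equal.

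Colgalt1 (ENSMUSG00000034807), the galactosyltransferase acting after the lysyl hydroxylases, stood at 51.6, 58.5 and 57.6 CPM at 0 h and at 95.3, 88.5 and 110.8 CPM at 5 days. It rose in every 5 day library, with a log2 fold change of 0.81 (SE 0.11, adjusted p = 7.26e-05). Its paralog Colgalt2 moved the other way, from 52.9 ± 3.62 to 15.4 ± 1.61 CPM (n = 3), or -1.78 on the log2 scale (SE 0.13, adjusted p = 4.64e-07). At 0 h the Colgalt1 and Colgalt2 levels per kb of exon were 12.9 and 12.5 CPM, and at 5 days they were 22.7 and 3.63 CPM.

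Serpinh1 (ENSMUSG00000070436), the collagen chaperone, stood at 232.7, 238.3 and 230.7 CPM at 0 h, a narrow range, and at 457.7, 388.3 and 600.9 CPM at 5 days. The 5 day libraries were all above those of 0 h and spread more widely. The log2 fold change of Serpinh1 was 1.04 (SE 0.14, adjusted p = 7.54e-05), and 0.84 without replicate 3 at 5 days. Set against a chain of each type of client, Serpinh1 moved less than the fibrillar Col1a1 and opposite to Col4a1 of the capsule. Of all listed chains, 8 of 10 tested fibrillar chains rose and 4 of 6 type IV chains fell, but Col2a1 fell by 2.04 and Col4a6 rose by 0.93. Over all tested genes 25.1% were called higher and 22.5% lower. Col1a1, a chain of type I collagen, rose by 7.21 on the log2 scale from only 100, 20 and 34 counts at 0 h. There were 17.2, 106 and 56.1 Serpinh1 counts per Col1a1 count at 0 h but 0.646, 0.502 and 0.446 at 5 days. Col4a1, a chain of type IV collagen, fell by 1.04, and Serpinh1 counts per Col4a1 count went from 0.0157, 0.0159 and 0.0152 to 0.0601, 0.0548 and 0.0844. Neither ratio overlapped between times, and the two-sided exact permutation test gave p = 0.1 for each (0.15 after adjustment over the 9 ratios computed).

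Outside the cell, the protease and its enhancer moved in opposite directions. Bmp1 (ENSMUSG00000022098) rose from 189.5, 183.2 and 201.4 CPM to 2038, 1857 and 2217 CPM. This is a log2 fold change of 3.41 (SE 0.12), or 10.7-fold with a 95% interval of 8.81 to 12.9, and an adjusted p of 3.28e-09. The replicates lay close together at both times, and 4.66% of all tested genes were called higher with a log2 fold change at least this large. The counts do not separate the short Bmp1 form from the longer mammalian tolloid form of the same gene.

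Pcolce (ENSMUSG00000029718), the enhancer, fell from 119.3, 120.7 and 144.7 CPM to 83.6, 96.6 and 88.1 CPM. All 5 day libraries were below all 0 h libraries, and the log2 fold change of Pcolce was -0.52 (SE 0.11, adjusted p = 0.00164). There were 0.630, 0.659 and 0.719 Pcolce counts per Bmp1 count at 0 h and 0.0410, 0.0520 and 0.0398 at 5 days. The log2 of this ratio fell by 3.93 (two-sided exact permutation, p = 0.1, or 0.15 after adjustment over the 9 ratios).

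**Figure D3:**
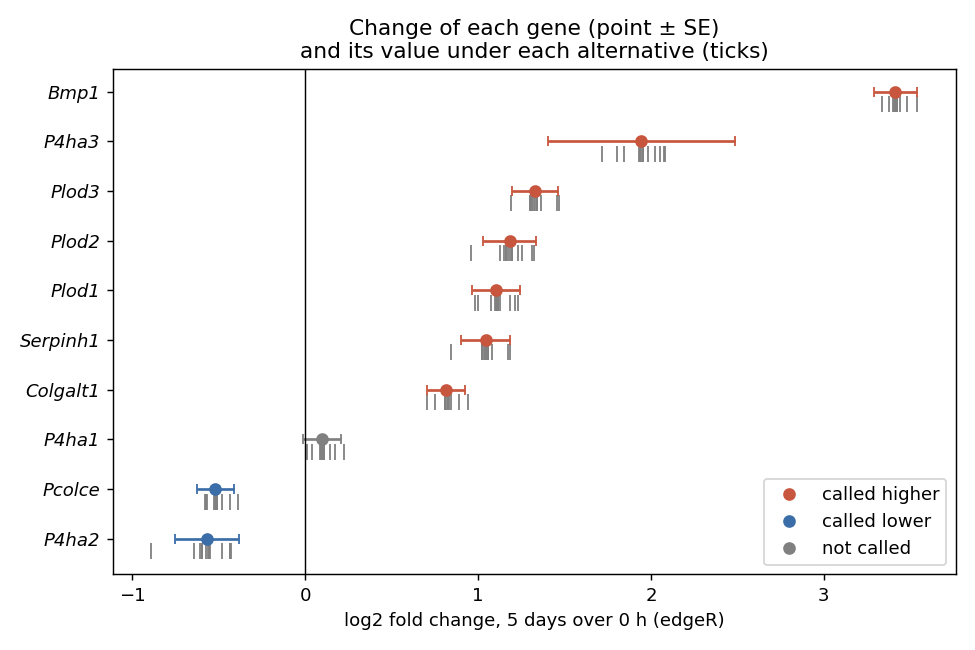
Log2 fold change of each gene, 5 days over 0 h, as point ± SE, with grey ticks below for its value under each other scaling, filter, test or left-out library. Bmp1 stays between 3.34 and 3.54, P4ha1 between 0.01 and 0.23, and P4ha2 spreads from -0.89 to -0.43.

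Levels of different genes were compared as CPM per kb of merged exon. This length joins the exons of all annotated forms and can exceed that of the transcripts present, which limits the order. At 0 h the order was P4ha1 (97.9 ± 7.40) and Serpinh1 (95.8 ± 1.61), then Pcolce (33.6 ± 3.74), Plod2 (26.4 ± 2.52), P4ha2 (24.4 ± 2.75) and Bmp1 (21.6 ± 1.04), all with n = 3. Colgalt1, Plod3 and Plod1 followed at 12.9, 8.29 and 5.12, and P4ha3 was last at 0.142. The library ranges overlapped between P4ha1 and Serpinh1, between Plod2 and P4ha2 and between P4ha2 and Bmp1, so those neighbours were not separated. At 5 days Bmp1 (229.7 ± 20.3) and Serpinh1 (197.4 ± 44.4) came first, with overlapping ranges, followed by P4ha1 (104.7 ± 10.5) and Plod2 (60.0 ± 14.5). Pcolce, Colgalt1, Plod3 and P4ha2 lay between 16.4 and 23.4, each overlapping the next. Plod1 stood at 11.0 and P4ha3 at 0.556. By mean level, Bmp1 went from place 6 to place 1 and Pcolce from place 3 to place 5. Places of genes with overlapping ranges were not separated.

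**Figure D4:**
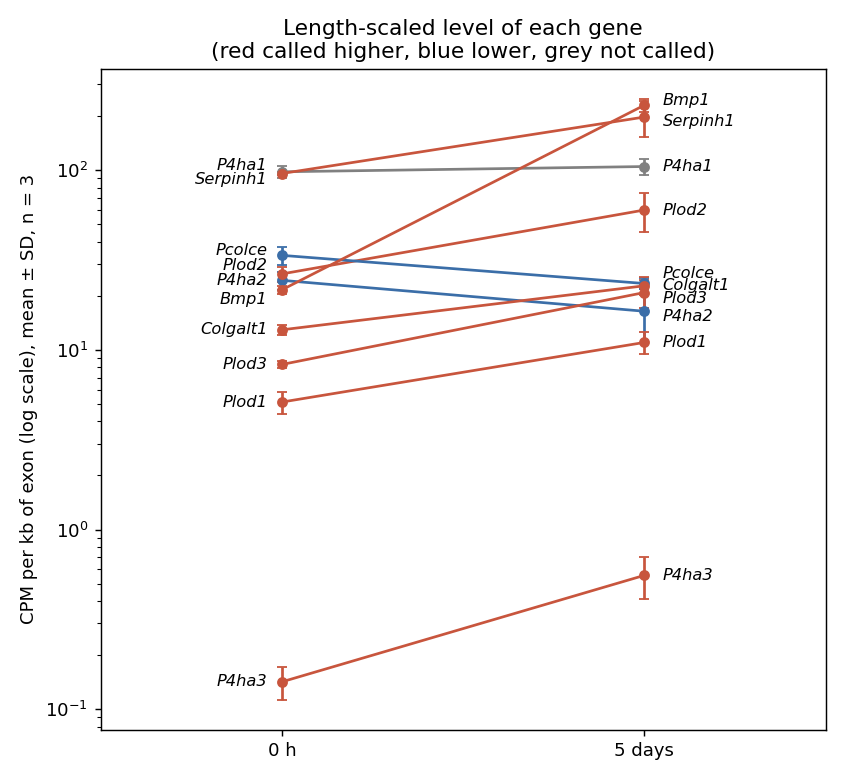
Level of each gene in CPM per kb of merged exon (log axis) at 0 h and 5 days, mean ± SD of 3 libraries. Bmp1 rises from 21.6 to 229.7, the Plod genes rise in parallel, and P4ha1 stays near 100 (97.9 and 104.7).

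Some of these genes share exon bases with a neighbour on the other strand in GENCODE M21, and the strand setting of the counting is not given in the sources used here. Plod3 shares 11.7% of its exon bases with Znhit1, Colgalt1 11.4% with Unc13a, and Plod2 6.42% with Gm38391. Znhit1 had 441 counts at 0 h and 479 at 5 days over the 3 libraries, Unc13a 185 and 164, and Gm38391 127 and 110. Over the same libraries Plod3 went from 936 to 2214 counts, Colgalt1 from 1399 to 2316 and Plod2 from 3551 to 7704. Pcolce shares 2.93% of its exon bases with Fbxo24 on its own strand, which had 3 and 1 counts, and the same bases with Gm36266 on the other, which had 20 and 10.

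The other genes of the pathway were described from 4 lists of 30 genes, of which 28 were tested, 16 were higher and 3 lower at 5 days. The median log2 fold change of the 28 was 0.44, against -0.01 over all tested genes. Of all tested genes 25.1% were called higher and 22.5% lower, and these shares stand beside each list below. In the prolyl 3-hydroxylation group, whose complex also acts as a chaperone, 4 of 6 tested genes rose and none fell by edgeR's test. Crtap, the helper protein of the complex, rose from 26.8 ± 6.07 to 55.8 ± 3.44 CPM (n = 3). P3h1, its catalytic subunit, rose by 0.87 (SE 0.14) on the log2 scale, P3h3 by 1.17 (SE 0.17) and the isomerase Ppib by 0.83 (SE 0.11). P3h2, which acts on type IV collagen, stood at -0.12 and was not called, nor was P3h4 at -0.05.

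Among 7 tested partners of the hydroxylases, 2 rose and 2 fell, near the shares of all tested genes (25.1% higher and 22.5% lower). P4hb, the protein disulfide isomerase that forms the beta subunit of prolyl 4-hydroxylase, rose from 193.3, 227.4 and 215.4 CPM to 552.4, 453.3 and 708.1 CPM. Its log2 fold change was 1.43 (SE 0.15, adjusted p = 8.94e-06), while none of the alpha genes except P4ha3 was called higher. Fkbp10, an isomerase that works with Plod2 on telopeptide lysines, rose by 1.31 (SE 0.12), with 69.1 ± 2.40 CPM at 0 h and 170.7 ± 25.2 CPM at 5 days (n = 3). Besides Colgalt2, P4htm fell, by 0.99 (SE 0.35), and this enzyme is not known for acting on collagen. Fkbp14, Tmem38b and Slc39a13 were not called, at 0.47, -0.33 and -0.13.

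The propeptide proteases and enhancers included large changes. Of 8 listed genes 6 were tested, 4 rose and 1 fell, where 25.1% of all tested genes were higher and 22.5% lower. Mep1a and Mep1b had no counts in any library. Adamts2, the main protease of the amino propeptide of type I collagen, rose from 2.16, 2.19 and 3.70 CPM to 98.2, 107.7 and 157.1 CPM, a log2 fold change of 5.49 (SE 0.24, adjusted p = 9.75e-09). Its relative Adamts14 had 1 count at 0 h and 770 at 5 days, a ratio of 821-fold with a 95% exact counting interval of 146.9 to 32470, which rests on that 1 count and covers counting error alone. Adamts3, which also cleaves the amino propeptide, was not called at -0.51. The Bmp1 relatives went apart: Tll1 rose by 2.43 (SE 0.28) from 4.18 ± 1.66 CPM, and Tll2 fell by 1.72 (SE 0.30) from 8.76 ± 1.63 CPM (n = 3). Pcolce2, the second enhancer, had 6 counts at 0 h and 52 at 5 days, a ratio of 9.24-fold with an interval for counting error alone of 3.97 to 26.3, and per kb of exon it stood at 0.0549 and 0.475 CPM where Pcolce stood at 33.6 and 23.4. Pcolce2 and Adamts14 passed the filter through the 5 day libraries alone and could hardly come out lower.

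Of 9 genes for the export of procollagen from the ER, 6 rose and none fell by edgeR's test, where 25.1% of all tested genes were higher. Creb3l1, a membrane-bound transcription factor for collagen secretion genes, rose from 50.8 ± 3.62 to 184.9 ± 31.1 CPM (n = 3), which is 1.86 (SE 0.13) on the log2 scale. Creb3l2 and the coat protein Sec24d rose by 0.84 (SE 0.13) and 0.79 (SE 0.14). Mia3 (TANGO1), the receptor that loads procollagen at ER exit sites, rose by 0.31 (SE 0.10), its partner Mia2 by 0.41 and Tmem131 by 0.37. Sec23a, Sar1b and Klhl12 were not called.

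**Figure D5:**
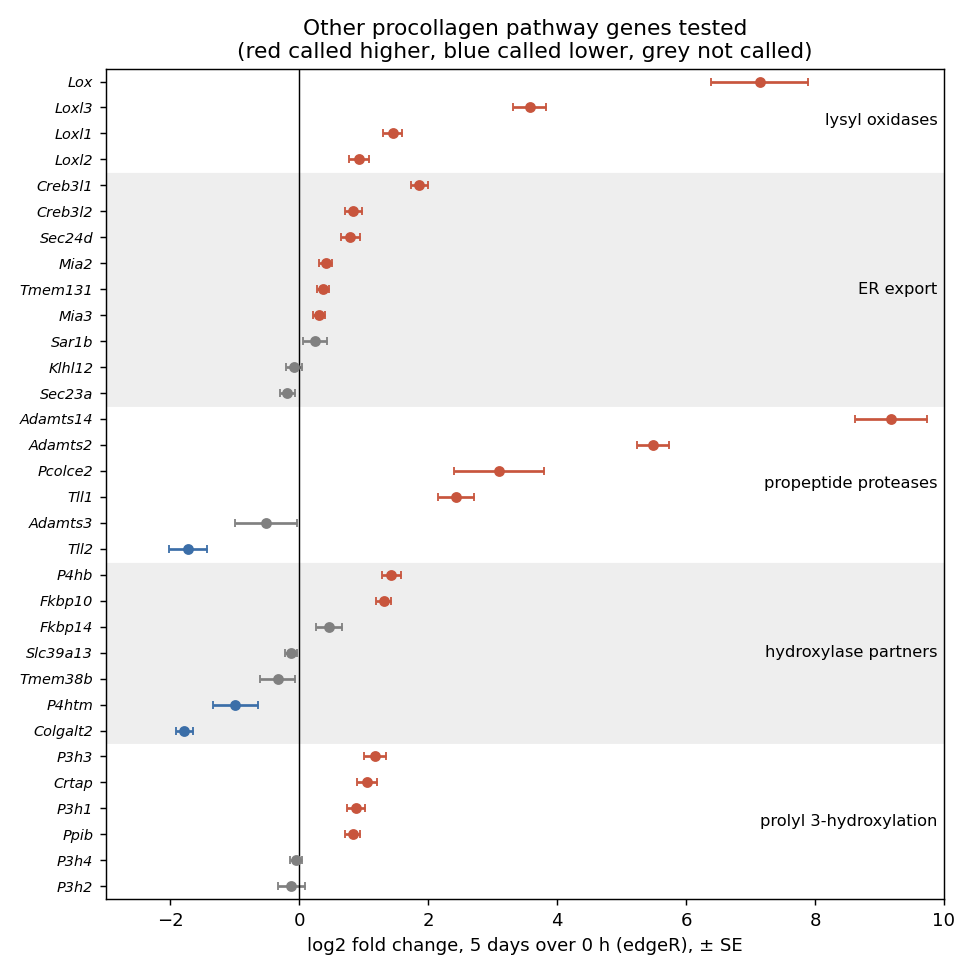
Log2 fold change, 5 days over 0 h, ± SE of the 28 tested genes of the 4 pathway lists and the 4 tested lysyl oxidases, with red for called higher, blue for called lower and grey for not called. Adamts14 had 1 count at 0 h, so its plotted value depends on the fitting, and Colgalt2, Tll2 and P4htm are the genes called lower.

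The collagen chains that these enzymes act on moved by type. Of 10 tested fibrillar chains 8 rose and 1 fell. Their median log2 fold change was 3.98, though low chains such as Col3a1 (33 counts at 0 h) could pass the filter through the 5 day libraries, and the summed level of the listed chains went from 221.8 to 231.6 CPM at 0 h to 2873 to 5055 CPM at 5 days. Col2a1 was the chain that fell, by 2.04 (SE 0.31). Of 6 type IV chains 4 fell and 1 rose, Col4a6, and the summed level went from 27840 to 28300 CPM to 15040 to 16390 CPM.  The lysyl oxidases, which cross-link collagen through the lysines and hydroxylysines, rose in 4 of 4 tested genes of 5 listed. Lox rose from 0.490 ± 0.164 to 69.5 ± 60.6 CPM (n = 3), with 139.3 CPM in replicate 3 against 30.2 and 38.9 in the others, and it passed the filter through the 5 day libraries alone. Loxl1 went from 169.9 ± 17.1 to 464.2 ± 97.6 CPM (n = 3).

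General ER folding genes rose alongside. Of 13 tested, 12 rose and none fell by edgeR's test. The median of this list was 0.87 on the log2 scale. That of the 10 procollagen genes was 1.07, and they ran from -0.57 (P4ha2) to 3.41 (Bmp1). Calr (calreticulin), the member with the largest rise, went from 408.4 ± 20.1 to 1115 ± 148 CPM (n = 3). Among 16 common hypoxia-inducible genes other than those above, 6 rose and 2 fell, and the median was 0.21. Of all tested genes 25.1% were called higher and 22.5% lower, and 47.6% were called in either direction. Adm had the largest rise, at 4.82 (SE 0.95) from 4 counts at 0 h to 123 at 5 days, but passed the filter through the 5 day libraries alone, and Ndrg1 had the largest fall, at -1.67 (SE 0.20). Replicate 3 at 5 days gave the top 5 day value for 15 of these 16 genes, against 35% of all tested genes. It also did so for 11 of the 13 ER folding genes, 9 of 10 tested fibrillar chains and 4 of 4 tested lysyl oxidases, but for 1 of 6 type IV chains. A link between these genes and P4ha2 was not tested.

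Markers of other cell types that could be in the pools were set beside these values. Among the 5 day libraries, replicate 3 was the highest for 2 of 12 leukocyte markers and 4 of 6 tested fibroblast markers. It was the highest for 5 of 7 endothelial and 4 of 4 pigment cell markers, and for 0 of 10 lens epithelium markers. The procollagen genes had 8 of 10, and all tested genes 35%. The shares over all tested genes were 25.1% called higher and 22.5% called lower. Of 10 fibroblast and keratocyte markers 6 were tested, 4 rose and 1 fell. Of the 4, Lum and Cd34 passed the filter through the 5 day libraries alone. Dcn and Col14a1 had 1 of the 3 libraries of 0 h past its cutoff and were also kept only because of the 5 day libraries. All 4 could hardly come out lower. Dpt and Kera were at 0 in all libraries and Cd34 at 0 in those of 0 h, and the summed level was 223.4 to 228.8 CPM at 0 h and 178.4 to 232.1 CPM at 5 days, mostly from Pdgfrb (220.1 ± 4.77 and 143.4 ± 9.44 CPM, n = 3). Endothelial markers rose in 4 and fell in 1 of 7 tested, with summed levels of 12.5 to 22.8 and 29.0 to 51.6 CPM and Cldn5 at 0 at 0 h. All 4 that rose (Pecam1, Cdh5, Tek and Cldn5) passed the filter through the 5 day libraries alone. Pigment cell markers were not called in any of 4 tested by edgeR's test, at a summed 12.7 to 34.1 and 12.6 to 40.0 CPM. The part of these cells in the procollagen values was not tested.

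The genes whose profile over the 6 libraries lay nearest to those of Bmp1 and P4ha2 were found by Euclidean distance between gene-centred log2 CPM values. Nearest to Bmp1 were Sh3pxd2b (distance 0.15), Tgfbr2 (0.20), Il4ra (0.23), Tcirg1 (0.24) and Flt1 (0.24), each with a log2 fold change of 3.28 to 3.43. Nearest to P4ha2 were 9330182L06Rik (0.22), B3galnt1 (0.24), Slc8a2 (0.28), Timp3 (0.31) and Klhl32 (0.32), with log2 fold changes of -0.65 to -0.42. These distances are over 6 libraries that differ mainly by time and carry no test.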

How the data were processed

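The deposited files hold raw read counts per Ensembl gene, made by the authors from alignments to GRCm39. HISAT2, HTSeq and edgeR are the tools in the submitters' processing notes, with no version, annotation release or strand setting. The labels' protocols name a stranded total RNA kit for low input. Reads in the 5 summary entries of HTSeq (32.26 to 42.55%) were left out. Symbols (91.32% of identifiers), exon lengths and overlaps came from GENCODE M21 (GRCm38), matched by identifier, and promoters from RefSeq (GRCm38.p6); no coordinates were converted.

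Genes were filtered with edgeR's default, scaled with TMM and tested with its quasi-likelihood test, version 4.0.16 under R 4.3.3, using Benjamini-Hochberg adjusted values and a threshold of 0.05. SE is the log2 fold change divided by the square root of F. Within-library ratios had 0.5 added to each count and were compared by exact permutation (scipy 1.17.1). Other settings were DESeq2 (1.42.0) and its size factors, total counts, TMM leaving out crystallins, mitochondrial and rRNA genes, 2 other filters, limma-voom (limma 3.58.1), a replicate block, and each library left out. The fit was also tested on simulated data.

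The 10 genes and the lists were chosen with earlier results of these data known. Named genes were the 10, any gene of the 4 pathway lists, the largest called rise and fall and the highest gene of other lists where given, chosen collagen chains and lysyl oxidases, and the 5 nearest profiles of 2 genes. Znhit1, Unc13a, Gm38391, Fbxo24, Gm36266, the cell type markers, Col3a1 and Col5a2 were named after their values were seen.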

Additional observations from a re-analysis of the deposited data

How the results depend on the processing

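Over the 10 genes and their alternatives, 133 of 139 log2 fold changes kept their direction and their side of the threshold, and the other 6, all in P4ha2 or P4ha3, kept the direction and lost the call. The count of genes called lower was 1 rather than 2 with total library size, and 1 to 2 when a library was left out, through P4ha2. The count called higher was 6 to 7 throughout. P4ha3 had no value with a filter of at least 2 CPM in 3 libraries, which it did not pass. Total library size shifted log2 fold changes by a median of 0.13, and 62.9% of all calls were then higher, against 52.7% with TMM. The difference in the log2 ratio of Plod2 to Plod1, 0.06 with all libraries, was -0.00 (-0.002) without replicate 1 at 0 h and -0.04 (-0.041) without replicate 3 at 5 days, and the cause was not tested. The labels do not say that the titles' numbers pair the pools, so they were not taken as pairs. Deviations from the group means had correlations of 0.039, -0.09 and 0.043 between same-numbered libraries. With 3 libraries a group, these cannot exclude that pools share mice. The library names in the labels carry other numbers than the titles for 2 of the 5 day libraries, so which libraries share a number is uncertain. Over all 9 combinations of a 0 h and a 5 day library the correlations were -0.095 to 0.065. With the titles' numbers as a replicate block, 7 of the 10 genes were called higher and 2 lower, and 17 of the other pathway genes were higher and 3 lower. Depth limits P4ha3, Pcolce2 and Adamts14, with 11, 6 and 1 counts at 0 h.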
